A study of Homo sapiens with 9 samples.

Results

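Nucleotide synthesis was followed through 9 enzyme genes, chosen by symbol and not by a threshold on a measured value: RRM1, RRM2, TYMS, TK1, DUT, DCK, UCK2, CTPS1 and IMPDH2. All 9 were found among the 19869 genes of the table for H460 cells that carry ERT2-RUNX3-MT, the K94/171R mutant. In the table of 24331 loci for the H460 control line and the H460-ERT2-RUNX3 WT line, loci carry no gene symbols. Only a part of the study's supplementary gene list was available here. That part names 1144 of these loci, all on chromosome 1, and names in the rest of the list were not read. Of the members, 2 could be named there, CTPS1 and UCK2.

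NCI-H460 is a large cell lung cancer line that was taken from a pleural effusion, and by the study's account it has an activated K-RAS gene and an inactive RUNX3 gene. The 3 stable lines were the H460 control, whose genotype is given as RUNX3 inactivation, a line with ERT2-RUNX3 WT inserted and a line with ERT2-RUNX3 MT inserted, whose K94/171R change swaps a pair of lysines for arginines. ERT2, a modified estrogen receptor domain, lets the protein fused to it enter the nucleus once 4-hydroxytamoxifen (4-OHT) binds. Cells at passage 11 were starved of serum for 24 h and sampled at 0 h (control), or at 8 h and 16 h after 10% serum with 1 μM 4-OHT. Each line and time gave 1 library, 9 in all, and no difference given here has a replicate check. No library with serum alone is among the 9, so serum and 4-OHT cannot be told apart within a line.

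Cells need the deoxynucleotides in balance to copy DNA, and they make most of them from ribonucleotides. Ribonucleotide reductase, built from the large subunit RRM1 and the small subunit RRM2, takes the oxygen from the sugar. Thymidylate synthase (TYMS) makes the thymine nucleotide from dUMP, the dUTPase DUT supplies dUMP and keeps uracil out of DNA, and thymidine kinase 1 (TK1) and deoxycytidine kinase (DCK) recover nucleosides. CTPS1 makes CTP from UTP, UCK2 phosphorylates uridine and cytidine, and IMPDH2 takes the first committed step toward GTP. Several of these genes, RRM2, TK1 and TYMS among them, are textbook targets of E2F factors around the start of S phase, whereas CTPS1 and IMPDH2 are known for supplying ribonucleotides to growing cells.

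FPKM, the fragments of a gene scaled to its transcript length and to the mapped fragments of the library, is a level per length, so genes of 1 library can be compared by it. The number of reads per library is not known. Read from the lowest FPKM steps, the K94/171R libraries at 8 and 16 h had 0.991 and 0.990 times the depth at 0 h, on 54 and 61 genes, and the libraries of the other lines had 0.964 to 1.17 times that of H460 at 0 h. These values are depths only if FPKM was scaled by mapped fragments. The scaling the authors used is not given in the sources used here. FPKM summed to 566164 to 603652 in the K94/171R libraries, and to 780952 in RUNX3WT at 16 h against 554359 to 641519 elsewhere. A level of FPKM 1 or more was reached by 10961 to 11367 genes. RUNX3 itself was listed at FPKM 2.12, 0.712 and 2.11 in the K94/171R line at 0, 8 and 16 h. How far reads of the inserted construct reach this value is not given in the sources used here. Of the epithelial markers, KRT8, KRT18 and KRT19 lay between FPKM 309 and 698 in that line, whereas EPCAM and CDH1 reached at most 0.313 and 0.0227. The lung lineage markers NKX2-1, SFTPB and SFTPC were at 0 or at most 0.143, and markers of leukocytes, endothelium and fibroblasts reached at most 0.590. Endothelium rests on VWF alone, because PECAM1 was not found among the genes listed for that line.

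All 9 enzymes were expressed in the K94/171R line, from FPKM 18.0 for DCK to 188 for IMPDH2 in starved cells, a 10.5-fold range. The plot of levels shows that their order hardly moved over the course. IMPDH2, RRM2, TYMS and DUT held the upper places at each time, and RRM1, CTPS1 and DCK the lowest 3 in that order. In starved cells, 435 of the genes in the table lay above IMPDH2. At 8 h RRM2 was the highest member. Whether neighbours in this order differ could not be judged from 1 library per time, and in bulk RNA a lower level per cell cannot be told apart from fewer cells that express a gene.

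A change is log2 of the later over the earlier FPKM of the same line, after 0.05 was added to each. At 8 h the 9 enzymes had a median log2 change of 0.17 from 0 h, against 0.01 over the 11252 genes with FPKM of at least 1 in either library. At 16 h the median was -0.11 against 0 h, beside -0.01 for 11325 genes, and -0.29 against 8 h, beside -0.02 for 11280 genes. The 3 contrasts share libraries and are not independent of each other. By the study's threshold of 2 on the log2 scale, 0 of 9 enzymes were higher and 0 of 9 lower at 8 h, where 0.142% and 0.471% of genes were. At 16 h against 0 h the count was again 0 of 9 in each direction, with 0.212% and 0.3% of genes past 2. Between 8 and 16 h it was also 0 of 9, with 0.372% and 0.115%. A threshold of 1 called 0 of 9 in every contrast and direction as well, with 1.27% and 2.49% of genes past it at 8 h, 1.47% and 1.27% at 16 h, and 2.66% and 1.53% between 8 and 16 h.

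By any amount, 6 of 9 enzymes were higher at 8 h than at 0 h and 3 lower, beside 50.8% and 49.2% of genes. At 16 h 1 of 9 was above 0 h and 8 were below, beside 48.2% and 51.8% of genes. Against 8 h, 0 of 9 were above and all 9 below at 16 h, beside 48% and 52% of genes. Among the 5758 genes with FPKM of at least 10 at all times, a range that holds all 9 enzymes, 3339 were lower at 16 h than at 8 h. With the libraries rescaled to the same FPKM sum, which turned TYMS, UCK2 and CTPS1 to slightly above 0 h at 16 h, 8 of 9 were higher at 8 h, 5 of 9 were below 0 h at 16 h, and 8 of 9 were below 8 h at 16 h. That rescaling shifts all genes of a contrast by the same amount, so the shares above do not apply to these rescaled counts. Shares of all genes after rescaling were not counted. With a threshold of 0.5, 1 enzyme was higher at 8 h (CTPS1, beside 9.36% of genes) and 0 lower (10.3%). At 16 h against 0 h there were 0 in either direction (6.82% and 5.67%). Between 8 and 16 h there were 0 higher (11.8%) and 2 lower (CTPS1 and RRM2, beside 10.7%).

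**Figure D1:**
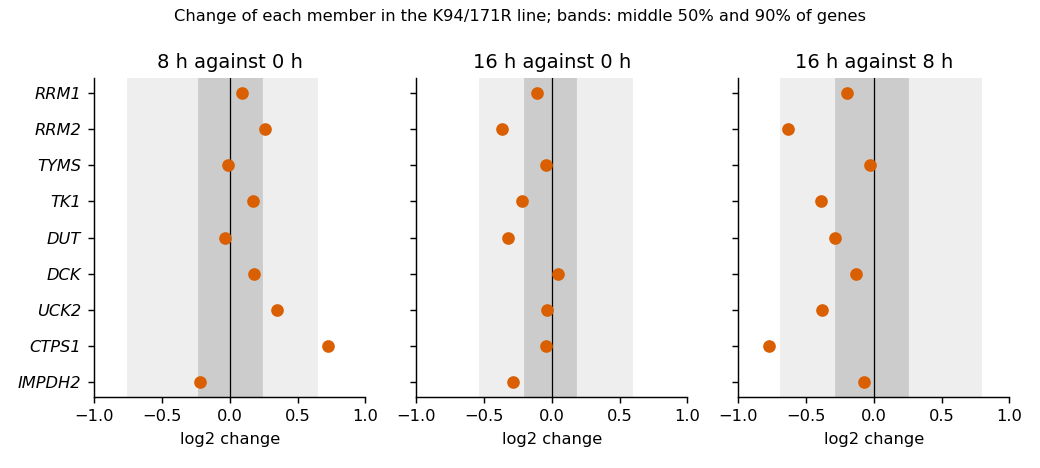
Log2 change of each enzyme (x axis) in the K94/171R line for the 3 contrasts; points are single values without error, and the bands hold the middle 50% (dark) and 90% (light) of genes with FPKM of at least 1. CTPS1 lies outside the light band at 8 h (0.73) and between 8 and 16 h (-0.77), and the other 8 enzymes lie inside it in each panel.

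Ribonucleotide reductase came first among the enzymes by role. RRM2 (ENSG00000171848, hg19 chromosome 2, 10260825 to 10351851, plus strand) encodes the small subunit that carries the radical and whose level limits the enzyme in cycling cells. RRM2 stood at FPKM 142 in starved cells, at 170 after 8 h and at 110 after 16 h. The log2 changes were 0.26 and -0.37 from 0 h, and -0.63 from 8 to 16 h, where 705 of 11280 genes were lower still. RRM1 (ENSG00000167325, chromosome 11, 4115937 to 4160162, plus strand), the large subunit with the active site, stood at FPKM 56.8, 60.5 and 52.7. Its changes of 0.09 and -0.11 had the same signs as those of RRM2 and were smaller.

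The p53-regulated small subunit RRM2B, which supplies deoxynucleotides outside S phase, had changes of the opposite sign to RRM2. RRM2B was listed at FPKM 20.1, 13.4 and 27.0, with log2 changes of -0.58 at 8 h and 0.43 at 16 h and a step of 1.01 from 8 to 16 h, so the ratio of RRM2 to RRM2B went from 7.08 to 12.7 and then to 4.08. RRM2B was the single gene of the wider nucleotide list that was higher by more than 1 between 8 and 16 h. A measurement without replicates cannot say whether this opposition holds.

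The RRM2 promoter is shown because RRM2 changed most among the 5 genes of deoxynucleotide supply (RRM1, RRM2, TYMS, TK1 and DUT). It holds the CCAAT word, a textbook site of the factor NF-Y, 3 times (capitals) within 250 bases before the start, each time inside the same stretch of 15 bases, agCCAATgggaaggg. Sequences are from RefSeq (GRCh38.p14).
RRM2, chr2:10122489-10122738, plus strand: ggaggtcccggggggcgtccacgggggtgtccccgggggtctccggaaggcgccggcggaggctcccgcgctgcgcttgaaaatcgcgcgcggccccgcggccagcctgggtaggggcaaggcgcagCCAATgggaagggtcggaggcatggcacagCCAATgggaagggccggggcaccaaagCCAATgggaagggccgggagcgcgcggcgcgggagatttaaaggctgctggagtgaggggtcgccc

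The words begin at -123, -93 and -66 from the start. CCAAT on either strand is in 34.6% of the 35116 RefSeq promoter windows (250 bases before to 50 after a start). Of the 9 enzymes, 8 have promoter windows in the table used here, 14 in all, and IMPDH2 was not matched. CCAAT is in 5 of the 14 windows, which belong to RRM1, RRM2, TK1 and UCK2.

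The thymidylate genes did not move as a block. TYMS (ENSG00000176890, chromosome 18, 657653 to 673578, plus strand) was the flattest member, at FPKM 130, 129 and 127 (log2 changes -0.01 and -0.04). TK1 (ENSG00000167900, chromosome 17, 76170172 to 76183314, minus strand) went from 83.1 to 93.7 and 71.5, log2 changes of 0.17 and -0.22, in the pattern of RRM2. DUT (ENSG00000128951, chromosome 15, 48623208 to 48635570, plus strand) was at FPKM 111 and 108 and then at 88.5, so its difference lay between 8 and 16 h (-0.29).

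At TYMS, reads need care. Of its 2421 exon bases, 967 (39.9%) also lie in exons of ENOSF1 on the other strand. The study's methods name a stranded mRNA library kit, but whether the authors' counting used the strand is not stated. ENOSF1 was listed at FPKM 14.9, 14.0 and 15.5, so TYMS stood 8.15 to 9.25 times above it. DUT has 8 pseudogenes that bear its name, RRM2 has 3 and TYMS has 2, none of which is a row of the K94/171R table, and reads that fit both a gene and its copy could have been placed in either. For IMPDH2, 1680 of 5123 exon bases (32.8%) are shared with another gene on the same strand.

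Exact E2F words are shown for the members that hold them, since E2F factors are the textbook regulators of thymidylate supply. The words searched were TTTCCCGC, TTTGGCGC, TTTCGCGC and TTTGCCGC on both strands, which 3.31% of promoter windows hold. They were found in 3 of the 14 member windows, of DUT, TYMS and the salvage kinase DCK (capitals, RefSeq, GRCh38.p14, plus strand). The windows of TK1, RRM1, RRM2, UCK2 and CTPS1 hold none of these words. One of the DUT starts has 2, at -42 and -27, the TYMS word begins at -39, and the DCK word begins at base 22 of the transcript.
DUT, chr15:48331947-48332196: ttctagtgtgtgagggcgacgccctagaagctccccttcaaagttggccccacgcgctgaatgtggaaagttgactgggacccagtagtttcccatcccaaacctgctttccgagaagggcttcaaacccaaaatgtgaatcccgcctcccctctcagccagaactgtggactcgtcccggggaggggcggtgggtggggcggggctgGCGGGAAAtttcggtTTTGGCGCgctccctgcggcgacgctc
TYMS, chr18:657602-657631: cgcgggacggccGCGGGAAAaggcgcgcgg
DCK, chr4:70993658-70993687: agctgcctccgcGCGCCAAAgtcaaacccc

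A match is only a match of letters, and no match says nothing of the factor.

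The salvage kinases stood far apart in level. DCK (ENSG00000156136, chromosome 4, 71858255 to 71896631, plus strand) was the lowest member, at FPKM 18.0, 20.4 and 18.6, and without rescaling the single one above its 0 h level at 16 h (0.05). UCK2 (ENSG00000143179, chromosome 1, 165796851 to 165880855, plus strand) went from 74.8 to 95.1 and back to 73.0, with log2 changes of 0.35 and -0.04. Its relative UCK1, which makes the same reaction, had a change of 0.54 at 8 h and -0.12 at 16 h at lower levels (FPKM 15.2, 22.1 and 14.0). UCKL1, a further relative, stayed between 14.2 and 14.9. The mitochondrial kinases TK2 and DGUOK, counterparts of TK1 and DCK, differed by at most 0.13 from their 0 h levels.

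CTPS1 had the largest change of the 9 enzymes. CTPS1 (ENSG00000171793, chromosome 1, 41444972 to 41478237, plus strand) was listed at 33.9, 56.0 and 32.9 FPKM, so that the 8 h level was 1.65 times that of starved cells and the 16 h level was back near it. Of 11252 genes, 404 had a larger change at 8 h (log2 0.73), and of 11280 genes, 402 had a lower one between 8 and 16 h (-0.77). Its paralog CTPS2 was near level, at FPKM 7.51, 7.62 and 8.44, so that CTPS1 exceeded CTPS2 by 4.51, 7.35 and 3.90 times. IMPDH2 (ENSG00000178035, chromosome 3, 49061758 to 49066880, minus strand) went the other way. It was highest in starved cells, at FPKM 188, and was at 162 and 154 later, log2 changes of -0.22 and -0.29. IMPDH1, the second IMP dehydrogenase, went from 50.7 to 65.0 and 52.2, a change of 0.36 at 8 h, and the IMPDH2 to IMPDH1 ratio was 3.71, 2.49 and 2.96.

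RUNX words (TGTGGT and TGCGGT, both strands) are shown for CTPS1 and TYMS, since RUNX3 is the factor under study. They were in 3 of the 14 member windows (of CTPS1, DUT and TYMS), a share near the 19.6% of all promoter windows. The CTPS1 word begins at base 43 of the transcript and the TYMS word at -206 (capitals; RefSeq, GRCh38.p14, plus strand).
CTPS1, chr1:40979726-40979745: ctgccgggcgcaTGCGGTcg
TYMS, chr18:657435-657464: tccttcccagccACCGCAcctgcatccagg

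The E-box CACGTG, in 7.26% of windows, was found in DCK. TATAAA on either strand, in 11.5%, was found in TK1, as the reverse complement TTTATA beginning at -132. Binding of these factors was not analysed here.

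The genes of the replicative helicase, MCM2 to MCM7, moved farther than the median enzyme. The 6 MCM genes had log2 changes of 0.29 to 0.63 at 8 h (median 0.50) and of -0.59 to -0.30 at 16 h (median -0.50), and their step from 8 to 16 h was between -1.10 and -0.69. For the 5 genes of deoxynucleotide supply the medians were 0.09, -0.22 and -0.29 in the same order. The cyclins CCNE1 and CCNE2, which act at the entry to S phase, had changes of -1.12 and -1.46 between 8 and 16 h, and E2F1 one of -0.96. PCNA, a further gene of DNA replication, did not follow the MCM genes. It was listed at FPKM 279, 265 and 248, with changes of -0.07 at 8 h, -0.17 at 16 h and -0.10 between 8 and 16 h. The later cyclins CCNA2 and CCNB1 were at 0.24 each at 16 h against 0 h. MKI67, a marker of cycling cells, was listed at FPKM 26.7 in starved cells and at 28.5 and 27.6 later. The difference between these lists was not tested.

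**Figure D2:**
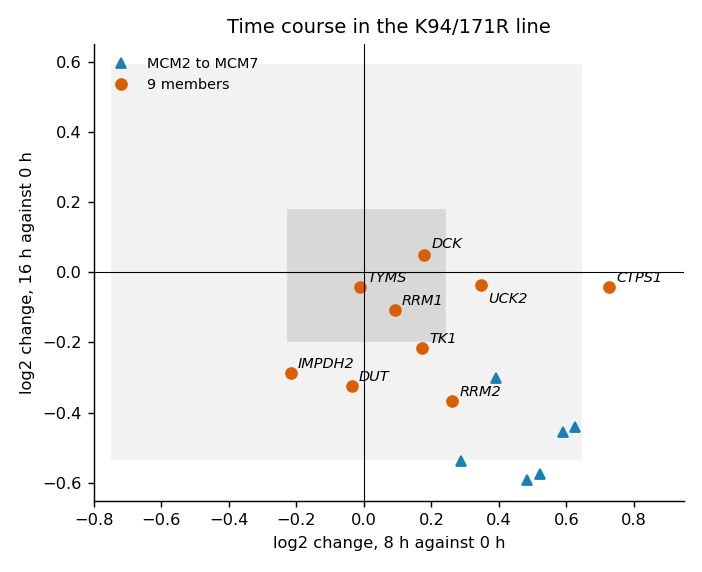
Log2 change at 16 h (y axis) against log2 change at 8 h (x axis), both from 0 h of the K94/171R line, for the 9 enzymes (circles) and MCM2 to MCM7 (triangles); boxes hold the middle 50% and 90% of genes on each axis. RRM2 (0.26, -0.37) is the enzyme nearest the MCM genes, and CTPS1 (0.73, -0.04) and IMPDH2 (-0.22, -0.29) lie farthest from each other.

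Among the enzymes, RRM1 and TYMS had the most similar pair of changes at 8 and 16 h (Euclidean distance 0.12 on the log2 scale), and CTPS1 and IMPDH2 the least similar (0.97). The pair of changes is a coarse description. The members' median pair (0.17, -0.11) was matched within 0.1 by 336 of 5749 other genes with FPKM of at least 10 at all times. The 5 nearest genes were MAP3K7, PPIG, BET1L, KIFC3 and TMTC3, at distances of 0.0050 to 0.011.

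The wider pathway was taken as 45 further genes, of which 43 had FPKM of at least 1 in the K94/171R line. At 8 h 30 of 43 were higher and 13 lower than at 0 h by any amount (50.8% and 49.2% of genes), with a median of 0.14. Of these, 1 was higher by at least 1 (1.27% of genes) and 1 lower (2.49%), and by at least 0.5, 7 were higher (9.36%) and 2 lower (10.3%). At 16 h against 0 h the median was -0.09, and 15 of 43 were higher and 28 lower by any amount (48.2% and 51.8% of genes). By at least 0.5, 1 was higher (6.82%) and 3 were lower (5.67%), and by at least 1, 0 were higher (1.47%) and 1 was lower (1.27%). Between 8 and 16 h the median was -0.21, and 12 of 43 were higher and 31 lower by any amount (48% and 52%). By at least 0.5, 3 were higher (11.8%) and 9 lower (10.7%), and by at least 1, 1 was higher (2.66%) and 1 lower (1.53%).

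De novo pyrimidine synthesis, the route that feeds CTPS1 with UTP, was listed as CAD, DHODH and UMPS together with CTPS2, which itself uses UTP. This list had the highest median of the branches at 8 h, 0.69 over 4 genes. CAD, which runs the first steps of the route, went from FPKM 17.6 to 30.1 and 19.5. DHODH, the mitochondrial step, went from 4.98 to 9.06 and 6.02. UMPS, which makes UMP, went from 15.4 to 23.4 and then to 5.51. Its log2 change of -2.08 between 8 and 16 h was the lowest of the list and the single one past 2 (0.115% of genes), and 12 of 11280 genes were lower. The first 3 were thus higher at 8 h by 0.61 to 0.86, and CTPS2 was at 0.02.

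Of 11 genes of de novo purine synthesis, 10 were higher at 8 h than at 0 h and all 11 were lower at 16 h than at 8 h, with medians of 0.28 and -0.37, beside 50.8% of genes higher at 8 h and 52% lower between 8 and 16 h. Among the 5758 genes with FPKM of at least 10 at all times, 3145 were higher at 8 h and 3339 lower between 8 and 16 h. PFAS, the enzyme of the fourth step, had the largest change (0.79; FPKM 18.2, 31.5 and 21.2), and ADSS2, on the way to AMP, was the exception (-0.03). IMPDH2, which makes the same reaction as IMPDH1 of this list, is a member and so was not counted among the 11. It was lower at 8 h (-0.22). Genes of dNTP and folate supply, phosphate transfer, salvage and breakdown had medians between -0.07 and 0.07 at 8 h. AK4, a mitochondrial adenylate kinase, was higher by 1.10 at 8 h (FPKM 4.94, 10.7 and 6.89). DPYD, which breaks down pyrimidines, was at 3.80, 1.69 and 2.54, lower by at least 1 at 8 h (-1.15). TYMP, which splits thymidine, had the highest change of the list at 16 h against 0 h (0.55; FPKM 9.48, 7.70 and 13.9).

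**Figure D3:**
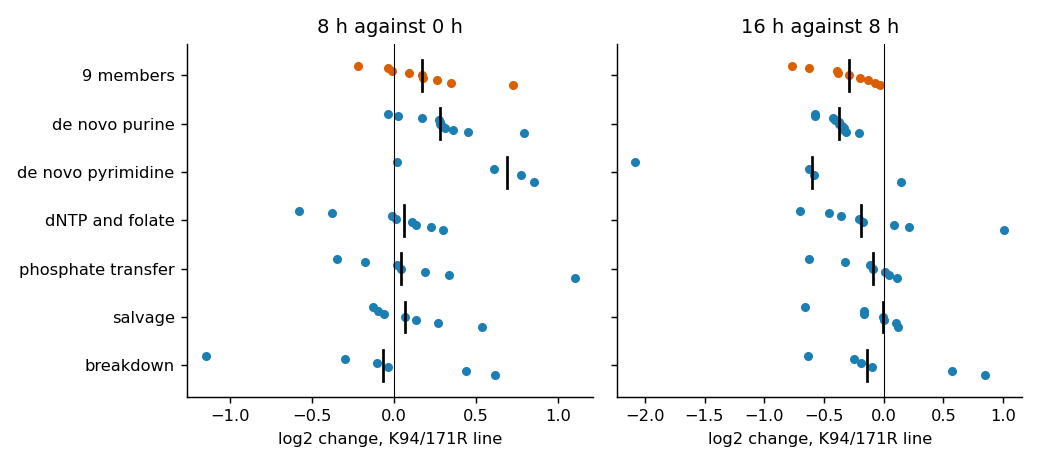
Log2 change in the K94/171R line (x axis) of the 9 enzymes and of 43 further genes by branch; points are genes, black bars are medians, and there is no error bar. The pyrimidine branch has its median at 0.69 at 8 h, and UMPS is the point at -2.08 between 8 and 16 h.

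CTPS1 and UCK2 are the members whose course could be set beside the other lines. Levels were compared only within a table, because the 2 tables were made separately with different gene models. In H460 cells CTPS1 was listed at FPKM 48.6, 49.2 and 37.4 at 0, 8 and 16 h. In RUNX3WT cells CTPS1 was at 45.8, 43.4 and 21.2. As listed, the course was near level to 8 h in both lines and lower at 16 h in both, more so in RUNX3WT, unlike the peak at 8 h in the K94/171R line. At 8 h the log2 changes of CTPS1 were 0.02 in H460, -0.08 in RUNX3WT and 0.73 in K94/171R, and at 16 h they were -0.38, -1.11 and -0.04.

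The RUNX3WT change of CTPS1 at 16 h was past 1 and short of the study's threshold of 2. In that line 20.9% of 11930 genes were lower by at least 1 and 7.2% by at least 2, so a value of this size was common there; in H460 0.699% were lower by at least 1. The difference of the changes, RUNX3WT less H460, was -0.73 at 16 h, and 3622 of 12273 genes (29.5%) had a lower difference. It was -0.09 at 8 h. Rescaling the libraries to the same FPKM sum, which lowers all changes by 0.49 in RUNX3WT and by 0.11 in H460 at 16 h, moved the change of CTPS1 to -1.60 and the difference from H460 to -1.12. At 8 h it moved them to -0.25 and -0.28.

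UCK2 was listed at FPKM 43.5, 46.3 and 45.3 in H460 cells and at 44.5, 44.6 and 35.4 in RUNX3WT cells. Its change at 16 h was 0.06 in H460, -0.33 in RUNX3WT and -0.04 in K94/171R. The difference, RUNX3WT less H460, was -0.38, with 39.4% of genes lower, and -0.77 after rescaling to the same FPKM sum, which put H460 at -0.050 and K94/171R at 0.057. At 8 h UCK2 was at 0.09, 0.00 and 0.35 in the 3 lines. For both genes the K94/171R library at 8 h had the highest change of the 3 lines.

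**Figure D4:**
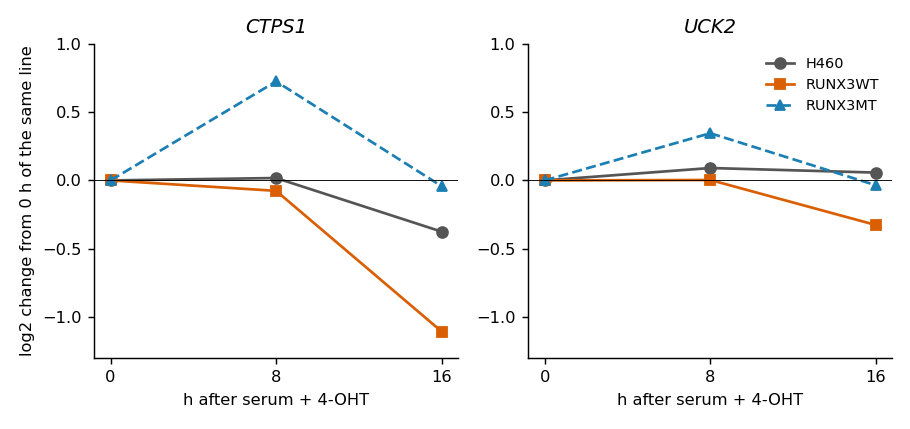
Log2 change of CTPS1 (left) and UCK2 (right) from 0 h of the same line (y axis) against hours after serum and 4-OHT (x axis) in H460, RUNX3WT and RUNX3MT (K94/171R) cells, 1 library per point. RUNX3WT ends lowest for both genes at 16 h, at -1.11 and -0.33, and RUNX3MT is highest at 8 h, at 0.73 and 0.35.

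The first table could name 5 further genes of nucleotide metabolism, all on chromosome 1. AK4 was listed at FPKM 3.69, 5.74 and 11.8 in RUNX3WT cells, a log2 change of 1.67 at 16 h, where 20.6% of genes were higher by at least 1. In H460 cells AK4 stayed between 5.99 and 6.70. GUK1, which phosphorylates GMP, was at 134, 155 and 114 in RUNX3WT and at 143, 165 and 197 in H460. CMPK1, the UMP and CMP kinase, differed by at most 0.31 from 0 h in both lines. AK5 and CDA stayed under FPKM 0.72 in every library, and CDA was listed at 0 in RUNX3WT at 0 and 8 h.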

How the data were processed

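The authors sequenced mRNA of 3 H460 lines at 0, 8 and 16 h. The study's methods name Cutadapt for trimming, and the submitters' processing notes name STAR 2.5.0, the hg19 build, Cufflinks and Cuffdiff 2.2.1. Libraries were made with a stranded mRNA kit by the study's methods. The gene annotation and the use of the strand in counting are not given in the sources used here. The authors deposited FPKM values in 2 tables, made separately, with 1 library per column. Changes were computed here as log2((FPKM + 0.05)/(FPKM + 0.05)) within a line, with Python 3.11.15, pandas 2.3.3 and NumPy 2.4.6. The pseudocount understates changes of genes with low FPKM. Background shares count genes that reached FPKM 1 in either library of a contrast. With 1 library per condition no test was run. Loci of the first table were named from the part of the study's supplementary gene list that was available here. Its values were not used. In the K94/171R table, 19494 Ensembl identifiers matched a symbol. Gene positions are from GENCODE 44 lifted to GRCh37, the coordinates of hg19, and promoter windows from RefSeq (GRCh38.p14). Simulated data tested only the recovery of planted changes larger than the threshold of 2, and the scaling steps. The smaller thresholds, the naming of genes and the promoter search were not tested in this way. Alternatives were pseudocounts of 1 and 0.01, rescaling to the same FPKM sum, a shift of the median change to 0, thresholds of 1 and 0.5, and no filter on FPKM.

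Members, lists and tests were chosen with earlier results of these data known. The text names all 9 members, their paralogs, ENOSF1, pathway genes past 1 or with the largest change, pathway genes that the first table can name, the 5 nearest genes, and MCM, PCNA, cyclin, E2F1, MKI67 and RUNX3 values. ADSS2, CAD, DHODH and PFAS were named after their values were seen. The result for 1 gene of the pathway list is not reported here.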

Additional observations from a re-analysis of the deposited data

Results flagged for a closer look

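In 4 comparisons between lines a member went in opposite directions from 0 h. Each direction rests on 1 library per line and time, and the differences were not tested. The pairs of the 3 lines were compared for CTPS1 and UCK2 at 8 and 16 h. How many of all genes go in opposite directions was not counted. Near equal shares went each way in every line, which does not tell how many genes go in opposite directions between lines. At 8 h 50.5% of genes were higher than at 0 h in H460, 49.8% in RUNX3WT and 50.8% in K94/171R. At 16 h the shares were 52.4%, 49.9% and 48.2%. At 8 h CTPS1 differed by -0.094 between RUNX3WT and H460 (-0.08 less 0.02 on the log2 scale) and by 0.80 between K94/171R and RUNX3WT (0.73 less -0.08). In both H460 and RUNX3WT, CTPS1 was near level at 8 h. At 16 h UCK2 differed by -0.38 between RUNX3WT and H460 (-0.33 less 0.06) and by -0.093 between K94/171R and H460 (-0.04 less 0.06). Both UCK2 comparisons depend on scaling. Once all libraries had 1 common FPKM sum, UCK2 at 16 h was at -0.050 in H460 and -0.82 in RUNX3WT, the same direction, and at 0.057 in K94/171R, so that the signs of K94/171R and H460 swapped. The K94/171R changes come from a table made separately from that of the other lines.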

How the results depend on the processing

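No paired analysis was possible because each condition has 1 library and the labels give no replicate numbers. Over the alternatives of 21 results, 81 values stayed within 0.1 on the log2 scale or, for counts, within 1.5 times of the value reported, and 12 did not. With a threshold of 0.5 the count of enzymes past it in K94/171R was 1 at 8 h and 2 between 8 and 16 h. Rescaling to the same FPKM sum gave CTPS1 changes of -0.48 in H460 at 16 h and of -0.25 and -1.60 in RUNX3WT at 8 and 16 h, and differences from H460 of -0.28 and -1.12. It gave UCK2 changes of -0.050 in H460 at 16 h and of -0.17 and -0.82 in RUNX3WT, and differences of -0.28 and -0.77; the sign of UCK2 turned in H460 at 16 h and in RUNX3WT at 8 h. In K94/171R at 16 h the same rescaling turned the sign of CTPS1 (to 0.050) and of UCK2 (to 0.057). The pseudocounts, the median shift and the threshold of 1 moved none of the 21 results beyond these limits. Dropping the FPKM filter could not move the counts of enzymes, since all of them exceed FPKM 1. It did raise the share of all genes past 2 in either direction. That share went from 0.613% to 2.02% at 8 h, from 0.512% to 1.79% at 16 h, and from 0.488% to 2.04% between 8 and 16 h. Without replicates and without read numbers, no error can be put on any change.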
